A study of Macaca mulatta with 10 samples.

Results

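The anterior thalamus and the centre median of untreated adult rhesus monkeys (Macaca mulatta) were compared directly on the 4 arrays labelled Anterior Thalamus and Centre Median, of 10 arrays in the series. Each nucleus had 2 arrays, numbered replicates 1 and 2, and the difference was taken as Anterior Thalamus minus Centre Median within each replicate number for all 11963 genes. The tissue was taken as small punches of the adult brain, and total RNA was hybridised to an Affymetrix array designed for human transcripts. The labels give no animal, age or sex and do not say whether punches were pooled, so the p-values measure only the spread between these arrays, which may be technical. The remaining 6 arrays were 2 each from Medial Thalamus, Pulvinar and Ventral Thalamus. In the main fit they served to estimate that spread, and they show where the other nuclei lay. They also helped to choose the probe set of each gene, and in some alternative fits they entered the difference.

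The nuclei belong to different circuits. The anterior nuclei receive input from the mammillary bodies and the hippocampal formation and project to the cingulate and retrosplenial cortex. The centre median is an intralaminar nucleus with strong input from the globus pallidus and a dense projection to the putamen. In both, most neurons are excitatory projection neurons that use glutamate.

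Values are log2(intensity + 1), where intensity is the deposited normalized value. The median over genes lay between 6.96 and 7.00 on the 4 arrays. Within a replicate number the arrays of the nuclei correlated across genes at 0.984 (replicate 1) and 0.990 (replicate 2), whereas the arrays of the same nucleus correlated at 0.952 (Anterior Thalamus) and 0.961 (Centre Median). XIST, the RNA that coats the inactive X chromosome in females, stood at 7.22 in Anterior Thalamus and 8.96 in Centre Median in replicate 1, and at 10.06 and 9.86 in replicate 2. The other replicate 1 arrays were divided in the same way, with XIST at 6.70 in Medial Thalamus and 6.86 in Ventral Thalamus and at 9.60 in Pulvinar. RPS4Y1, a Y-linked ribosomal gene, stood at 8.20 and 7.65 in replicate 1 and at 7.12 and 7.15 in replicate 2. For XIST and RPS4Y1 the nuclei thus differed more in replicate 1 than in replicate 2. The other 6 Y-linked genes measured were DDX3Y, KDM5D, USP9Y, EIF1AY, UTY and ZFY. Their differences ran from -0.20 to 0.0040 in replicate 1, where RPS4Y1 had 0.55, and from -0.20 to 0.29 in replicate 2. Of these, DDX3Y, USP9Y, EIF1AY and ZFY read only 4.32 to 5.53 on the 4 arrays, well below the median over genes. At such levels a difference may not show. As the labels name no animal, a difference between animals and one between nuclei cannot be told apart within a pair. As a measure of RNA quality, the log2 difference of the actin probe sets (3' over 5') was taken, and it was close within each pair, at 0.37 and 0.46 in replicate 1 and at 1.36 and 1.15 in replicate 2, with Anterior Thalamus given first. General thalamic markers were high in both nuclei: TCF7L2, a transcription factor of thalamic neurons, read 12.30 and 12.93 in Anterior Thalamus and 12.06 and 12.74 in Centre Median, and SLC17A6, the vesicular glutamate transporter of relay neurons, read 10.71 and 11.05 against 10.47 and 10.81.

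Few genes passed the test, and most of those that did were higher in Centre Median. Limma with the replicate number as a block called 9 of 11963 genes at a Benjamini-Hochberg adjusted p under 0.05, or 0.0752% of those tested. Of these, 7 were higher in Centre Median (0.0585%) and 2 were higher in Anterior Thalamus (0.0167%). The 7 were MC4R, TPBG, DIRAS3, CBLN1, SERPINI1, LMO1 and CRYM, at 2.48- to 4.64-fold. The 2 were NPTX2 and PCP4, at 2.49- and 2.29-fold. At an unadjusted p under 0.05 there were 796 genes (6.65%). Without the block only MC4R and TPBG passed, with limma adjusted p of 0.0255 and 0.0307 (0.0167% of genes).

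**Figure D1:**
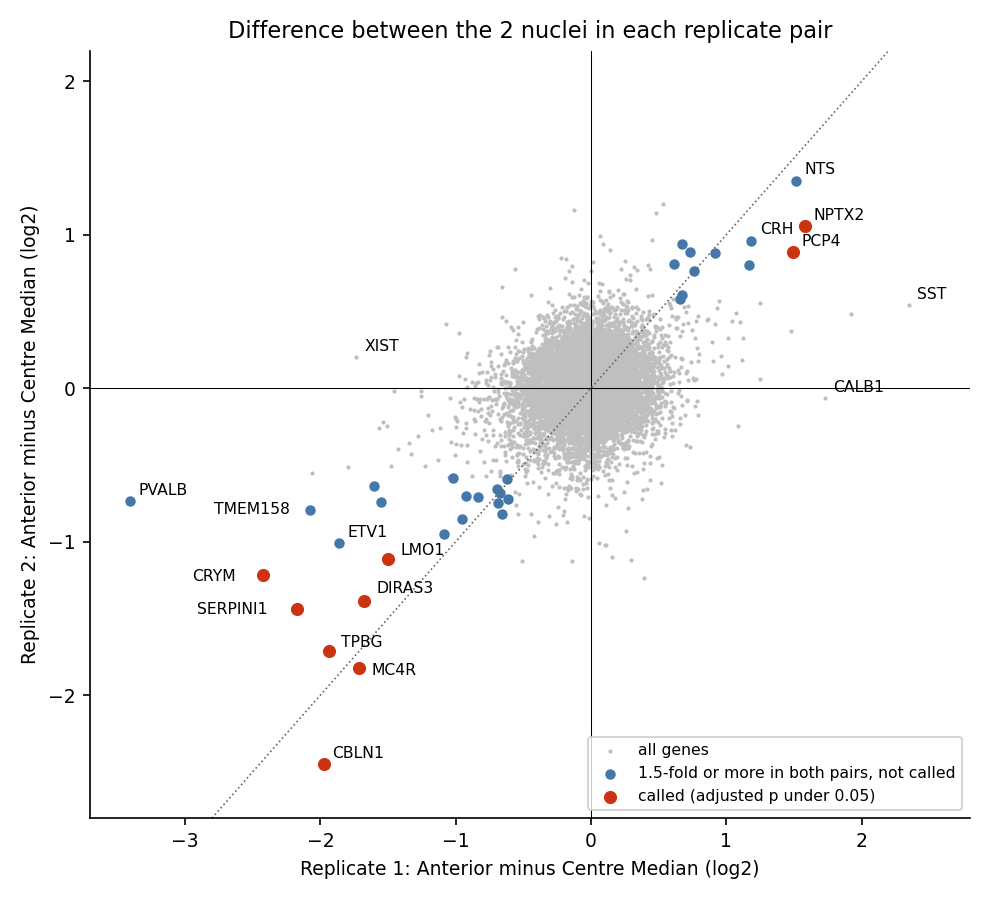
Difference between the nuclei (log2, Anterior Thalamus minus Centre Median) in replicate 1 on the horizontal axis and in replicate 2 on the vertical axis, 1 point per gene; red points are the 9 called genes, blue points the other genes that differed by 1.5-fold or more in both pairs, and the dotted line marks equal differences. The called genes lie away from 0 on both axes, whereas PVALB, SST and CALB1 differ mainly in replicate 1.

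The receptor and membrane genes gave the most even separation. MC4R, the melanocortin receptor that responds to appetite-regulating peptides, read 6.54 and 6.35 in Anterior Thalamus and 8.25 and 8.17 in Centre Median (replicates 1 and 2). Both Centre Median arrays lay above both Anterior Thalamus arrays, as they did for 864 of all genes (7.22%). The pairs gave 3.28- and 3.54-fold. The log2 difference was -1.77 (SE 0.119, adjusted p = 2.7e-05 by limma). TPBG, a cell-surface glycoprotein that acts in Wnt signalling, read 5.83 and 5.84 in Anterior Thalamus and 7.76 and 7.55 in Centre Median, 3.83- and 3.28-fold in the pairs. Its difference was -1.83 (SE 0.144, adjusted p = 8.29e-05). The Anterior Thalamus arrays were low for TPBG even against the other nuclei, with both below all 8 other arrays.

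CBLN1 had the largest called difference. CBLN1, a secreted protein that links neurexins to glutamate delta receptors and so organises synapses, read 6.97 and 6.22 in Anterior Thalamus against 8.94 and 8.67 in Centre Median, a difference of -2.21 (SE 0.258, adjusted p = 0.00305 by limma). Both pairs went the same way, at 3.94- and 5.46-fold, and CBLN1 was the only called gene other than MC4R with a larger difference in replicate 2. SERPINI1, the neuronal protease inhibitor neuroserpin, is also secreted and read 8.96 and 9.19 against 11.14 and 10.63. Its difference was -1.81 (SE 0.222, adjusted p = 0.00389), with 4.51-fold in replicate 1 and 2.72-fold in replicate 2.

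The intracellular regulators higher in Centre Median were DIRAS3, LMO1 and CRYM. DIRAS3, a small GTPase related to Ras, read 5.35 and 5.29 in Anterior Thalamus and 7.03 and 6.68 in Centre Median, a difference of -1.53 (SE 0.153, adjusted p = 0.000906 by limma). LMO1, a LIM-domain partner of transcription factors, read 5.66 and 5.64 against 7.17 and 6.75, a difference of -1.31 (SE 0.161, adjusted p = 0.00389). For both genes, all Centre Median arrays lay above all Anterior Thalamus arrays, as for 7.22% of all genes. CRYM, a cytosolic thyroid hormone-binding protein, read 8.68 and 8.92 against 11.11 and 10.14. Its groups did not overlap, but the pairs differed in size, at 5.38-fold in replicate 1 and 2.32-fold in replicate 2 (mean difference -1.82, SE 0.229, adjusted p = 0.00413).

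The genes higher in Anterior Thalamus act at synapses and in calcium signalling. NPTX2, a secreted pentraxin that clusters AMPA receptors, read 9.04 and 8.33 in Anterior Thalamus and 7.46 and 7.28 in Centre Median, a difference of 1.32 (SE 0.150, adjusted p = 0.00285 by limma). PCP4, a small protein that binds calmodulin, read 11.80 and 11.58 against 10.31 and 10.69, a difference of 1.19 (SE 0.183, adjusted p = 0.0296). For both genes all Anterior Thalamus arrays lay above all Centre Median arrays, as they did for 1005 of all genes (8.4%), and Centre Median lay above Anterior Thalamus in the same way for 864 (7.22%). For both genes the larger difference was in replicate 1 (2.99-fold against 2.08-fold for NPTX2 and 2.82-fold against 1.85-fold for PCP4).

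By their means, the other 3 nuclei stood closer to Anterior Thalamus than to Centre Median for the called genes, except Medial Thalamus for CBLN1. For MC4R, TPBG, DIRAS3 and LMO1, Anterior Thalamus and the other 3 nuclei had low means, of 5.29 to 6.53. Detection calls were not used, so whether these genes were expressed there was not tested. For 8 of the 9, all but CBLN1, both Centre Median arrays lay outside the range of the 8 remaining arrays, against 187 of all genes (1.56%). Both Anterior Thalamus arrays lay outside the range of the other 8 only for TPBG, against 142 of all genes (1.19%). The 9 genes were called for a difference between these nuclei, and each set of 8 arrays includes the other nucleus. The selection thus met part of each condition, so the shares of all genes are not a like comparison. MC4R ranged from 6.32 to 6.53 on the 6 arrays of the other nuclei, LMO1 from 5.40 to 5.83 and SERPINI1 from 9.03 to 9.64. NPTX2 ranged from 7.90 to 8.93 and PCP4 from 11.14 to 12.05, so the lower level was again that of Centre Median. CBLN1 differed from this pattern because Medial Thalamus replicate 1 read 8.86, as high as Centre Median, and the means were 7.93 in Medial Thalamus, 6.66 in Pulvinar and 6.78 in Ventral Thalamus. In the same limma fit, Anterior Thalamus against Medial Thalamus and against Pulvinar gave 0 calls each (610 and 572 genes at an unadjusted p under 0.05), and against Ventral Thalamus 2 calls (0.0167%). Centre Median gave 9 (0.0752%), 11 (0.092%) and 44 (0.368%) calls against Medial Thalamus, Pulvinar and Ventral Thalamus. These comparisons share arrays, and the numbers of calls were not tested against each other.

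**Figure D2:**
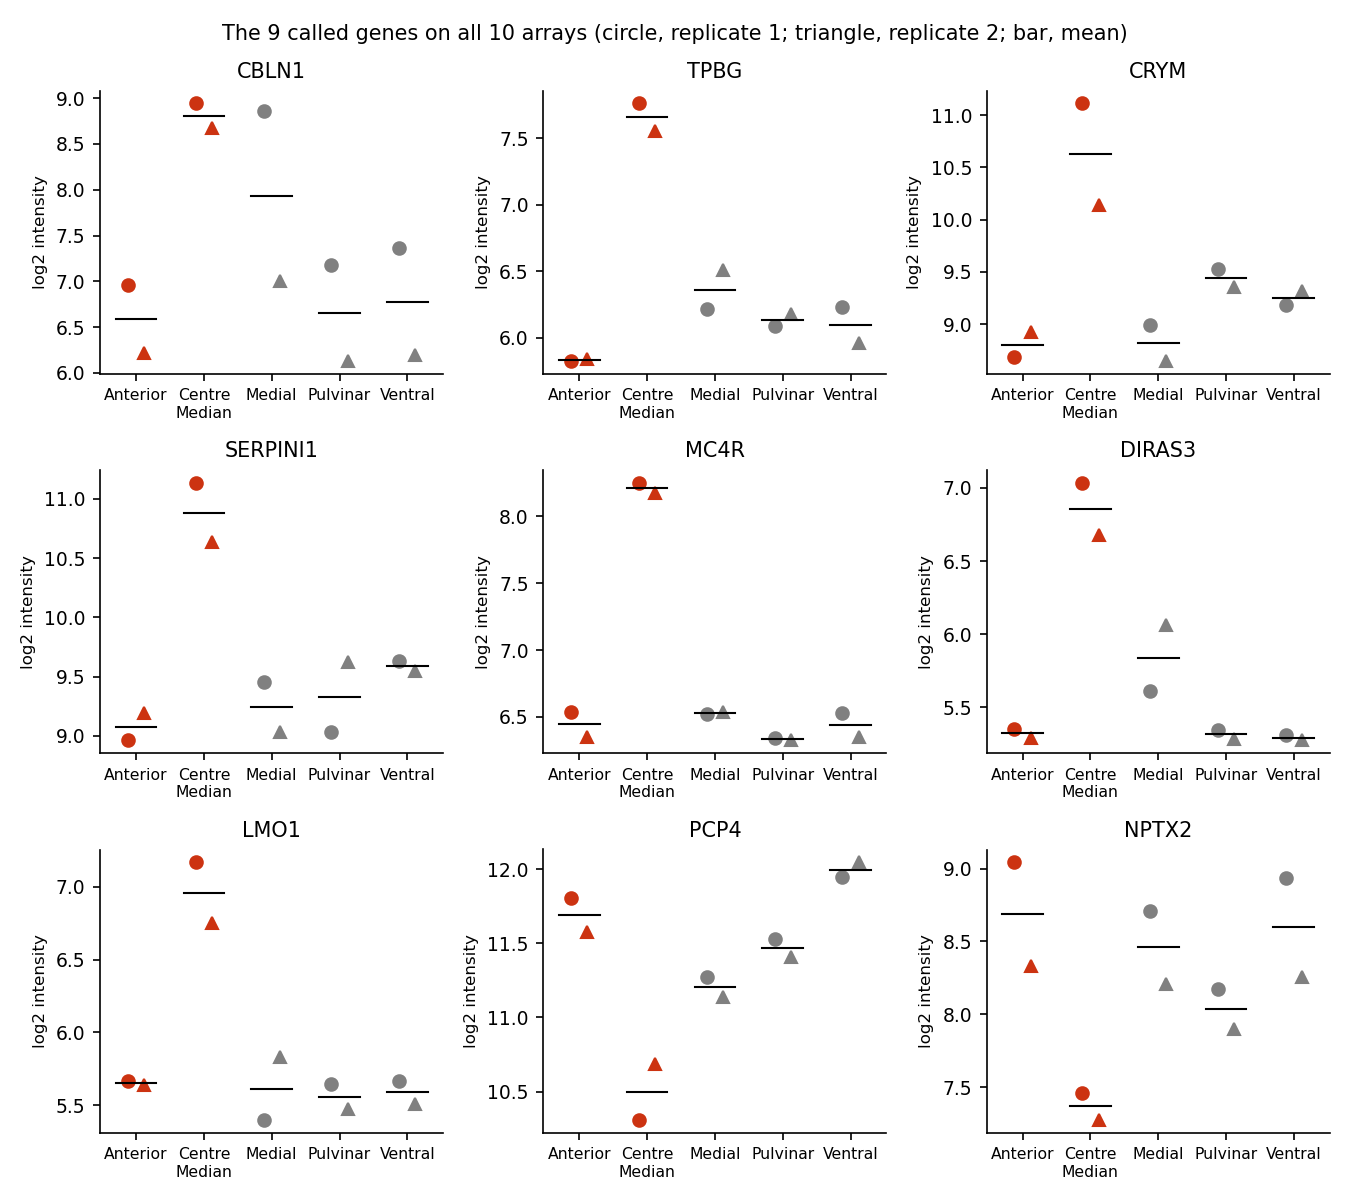
log2 intensity of the 9 called genes on all 10 arrays, by nucleus; circles are replicate 1, triangles replicate 2, bars the mean of 2 arrays, and red marks the nuclei compared. Axes differ between genes and do not start at 0. Centre Median stands apart from the other 4 nuclei for every gene except CBLN1, where Medial Thalamus replicate 1 is as high.

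The genes with the next smallest p, taken among those with the same sign in both pairs, did not pass. On the Centre Median side LRRC17, a leucine-rich repeat protein, read 6.20 and 5.38 in Anterior Thalamus and 7.03 and 6.09 in Centre Median (adjusted p = 0.0532 by limma). FGL2, a fibrinogen-like protein, had a difference of -0.61 (adjusted p = 0.0585) with pairs at 1.54- and 1.51-fold. TMEM158 had the larger difference of -1.44 (adjusted p = 0.101), but its Centre Median arrays read 9.39 and 8.25. On the Anterior Thalamus side HS3ST1, a heparan sulfate sulfotransferase, had a difference of 0.98 (adjusted p = 0.101), and its other 2 probe sets gave 0.11 and 0.12. CSRP2, a LIM-domain protein of the cytoskeleton, read 8.90 and 8.99 against 7.98 and 8.11 (adjusted p = 0.118), and its other probe set gave 1.02. CITED2, a transcriptional co-regulator, was 1.70-fold higher in each pair (adjusted p = 0.121), although its groups overlapped, at 8.32 and 9.43 in Anterior Thalamus and 7.55 and 8.67 in Centre Median. MYRIP, a myosin- and Rab-binding protein, KCND3, an A-type potassium channel, NNAT, CYLD, a deubiquitinating enzyme, and SERPINA7 followed, with differences of 0.57, 0.73, 0.64, 0.60 and 0.43 and adjusted p of 0.208 to 0.277. The 3 other KCND3 probe sets gave differences between -0.07 and 0.06. Of the 6 other CYLD probe sets, 3 lay lower in Anterior Thalamus (-0.02, -0.11 and -0.15) and 3 higher (0.21, 0.23 and 0.50). None of the 9 called genes had another probe set, so their differences rest on 1 probe set each.

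Across all genes the pairs shared only part of their differences. The replicate 1 and replicate 2 differences correlated across genes at 0.200 (Pearson) and 0.0948 (Spearman), a description over genes that share arrays. The sign was opposite for 5754 genes (48.1%), both pairs were higher in Anterior Thalamus for 3234 (27%) and both were higher in Centre Median for 2962 (24.8%). A difference of at least 1.5-fold was seen for 332 genes (2.78%) in replicate 1 and for 160 (1.34%) in replicate 2. It was seen in both with the same direction for 35 genes (0.293%), 12 higher in Anterior Thalamus (0.1%) and 23 higher in Centre Median (0.192%), and in both with opposite directions for 1 gene (0.00836%), SULF1. This 1.5-fold threshold was chosen after the values were seen, and it is used here as a description.

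All 9 called genes were among these 35, and the other 26 did not pass. NTS, the neuropeptide neurotensin, read 11.39 and 11.02 in Anterior Thalamus and 9.87 and 9.67 in Centre Median. The groups did not overlap, as in this direction for 8.4% of all genes, and the pairs gave 2.86- and 2.56-fold. NTS did not pass (difference 1.44, SE 0.727, 95% interval -0.14 to 3.01, adjusted p = 0.791 by limma). The SE draws on how far the replicates within each nucleus disagreed after the block. NTS read 10.87 and 6.40 in Ventral Thalamus, against 10.98 and 10.36 in Medial Thalamus and 9.71 and 8.98 in Pulvinar. CRH, the corticotropin-releasing hormone, read 10.80 and 10.68 against 9.61 and 9.71 (adjusted p = 0.345). On the Centre Median side ETV1, an ETS-family transcription factor, read 8.19 and 8.77 in Anterior Thalamus and 10.06 and 9.78 in Centre Median (adjusted p = 0.121), and LEF1, a transcription factor of the Wnt pathway, read 7.49 and 8.34 against 8.58 and 9.29 (adjusted p = 0.277). Other ETV1 probe sets gave differences between -1.13 and -0.09, and other LEF1 probe sets gave -0.44 and -0.16. CDH9, a classical cadherin, read 5.00 and 5.29 against 5.95 and 6.14 (adjusted p = 0.244). PVALB, the calcium-binding protein parvalbumin, had the largest difference of any gene in a single pair: 7.91 against 11.32 in replicate 1, or 10.6-fold, and 9.64 against 10.38 in replicate 2, or 1.66-fold (adjusted p = 0.309).

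The 35 genes were set against the other nuclei within each replicate number. Of the 23 genes higher in Centre Median, 14 had at least 5 of the 6 other arrays nearer to the Anterior Thalamus array than to the Centre Median array, and 9 were mixed. Of the 12 genes higher in Anterior Thalamus, 8 had at least 5 of 6 nearer to Anterior Thalamus and 4 were mixed. No gene of the 35 had at least 5 of 6 nearer to Centre Median. The same counts were not made over all genes, and the 35 were selected by a threshold chosen after the values were seen. The counts therefore describe these genes only.

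**Figure D3:**
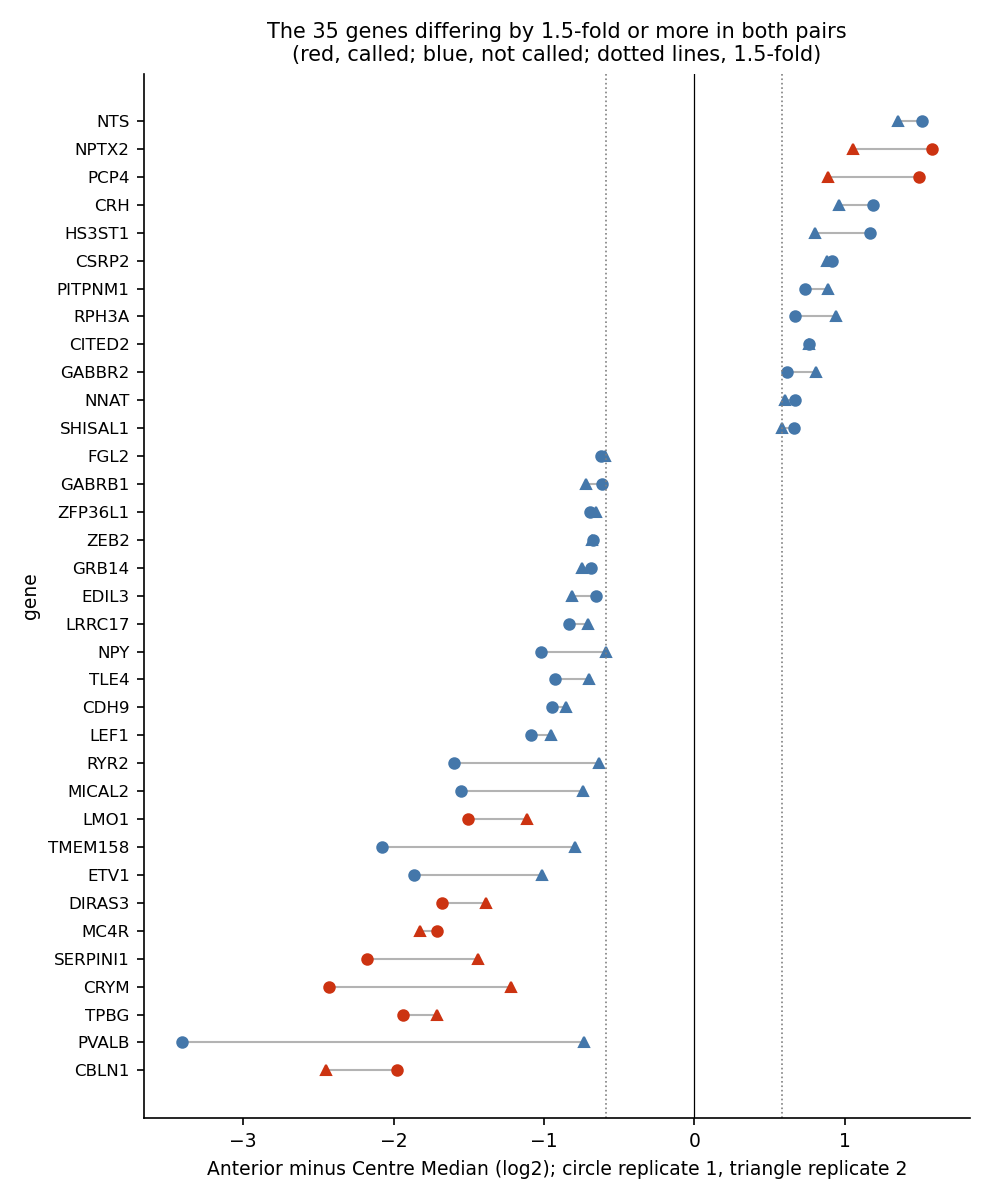
The 35 genes with a difference of at least 1.5-fold (dotted lines) in the same direction in both pairs, ordered by their mean difference (log2, Anterior Thalamus minus Centre Median); circles are replicate 1, triangles replicate 2, and red marks called genes. MC4R, TPBG and NTS have closely placed pairs, whereas PVALB, RYR2, MICAL2 and TMEM158 differ far more in replicate 1.

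Gene lists for signalling, channels and structure were read by their counts, beside those of all genes. The lists were chosen with earlier results of these data known. A share of a list above that of all genes is therefore a description and no sign of enrichment. Of all genes 27% were higher in Anterior Thalamus in both pairs and 24.8% higher in Centre Median in both. For all genes the median difference was 0.0046, with -0.01 in replicate 1 and 0.02 in replicate 2. Among neuropeptides and their receptors, 1 of 42 was called (MC4R), against 0.0752% of all genes, 7 had an unadjusted p under 0.05 (16.7%, against 6.65% of all genes), 14 were higher in Anterior Thalamus in both pairs and 10 were higher in Centre Median in both. SST, the peptide somatostatin, read 9.80 and 7.54 in Anterior Thalamus and 7.46 and 7.00 in Centre Median (adjusted p = 0.39 by limma), so replicate 1 of Anterior Thalamus was the array that stood high. NPY, neuropeptide Y, had a difference of -0.80 (adjusted p = 0.336), and PENK, the enkephalin precursor, read 6.78 and 6.41 in Anterior Thalamus against 7.17 and 7.28 in Centre Median (adjusted p = 0.327). TAC1, the substance P precursor, read 6.53 and 5.22 against 4.61 and 4.74 (adjusted p = 0.428), again highest in Anterior Thalamus replicate 1.

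Synaptic organisers and release genes showed members in both directions. Of 23 cerebellins, neurexins and related organisers, 1 was called in each direction (NPTX2 and CBLN1), against 0.0752% of all genes called. In this list 4 had an unadjusted p under 0.05 (17.4%, against 6.65% of all genes), and the median was -0.01. ADGRL2, an adhesion receptor of synapses, had a difference of -0.81 (adjusted p = 0.233 by limma) and NLGN4X, a neuroligin, of 0.25 (adjusted p = 0.922). Of 32 synaptic vesicle release genes, 0 were called (3 at an unadjusted p under 0.05), 16 were higher in Anterior Thalamus in both pairs and 5 were higher in Centre Median in both, with a median of 0.12. RIMS1, an active zone scaffold, and SV2B, a vesicle protein, had differences of 0.40 and 0.38, and SYT1, the calcium sensor of release, of -0.44 (adjusted p = 0.603, 0.631 and 0.696).

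Calcium-binding proteins separated gene by gene. Of 21 measured, PCP4 was called, against 0.0752% of all genes, and 6 had an unadjusted p under 0.05 (28.6%, against 6.65% of all genes). Of the 21, 8 were higher in Anterior Thalamus in both pairs and 7 were higher in Centre Median in both (median 0.04). VSNL1, a neuronal calcium sensor, read 12.32 and 12.29 in Anterior Thalamus and 11.73 and 11.77 in Centre Median (adjusted p = 0.523 by limma). Its difference was 0.56, and its other probe set gave 0.29. CALB1, calbindin, read 7.44 and 8.63 against 5.71 and 8.69, so the nuclei differed in replicate 1 and read alike in replicate 2 (adjusted p = 0.839). CALB2, calretinin, read 9.43 and 9.39 against 9.39 and 9.25, a difference of 0.09 with a 95% interval of -0.35 to 0.52.

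No ion channel gene and no receptor gene for glutamate, GABA, amines or acetylcholine in these lists was called by limma. Only 0.0752% of all genes were called, so the absence of calls does not set these lists apart. At an unadjusted p under 0.05 there were 7 of 22 sodium and calcium channel genes, 7 of 37 potassium and HCN channel genes, 5 of 28 glutamate receptor genes, 4 of 23 GABA genes and 4 of 41 serotonin, acetylcholine, dopamine and adrenergic receptor genes, against 6.65% of all genes. Among 22 voltage-gated sodium and calcium channel genes, 5 were higher in each nucleus in both pairs, and the median was 0.03. CACNA2D3, an auxiliary calcium channel subunit, read 7.92 and 8.54 in Anterior Thalamus and 9.98 and 9.09 in Centre Median (adjusted p = 0.304 by limma), and CACNA1G, the T-type calcium channel of thalamic burst firing, had a difference of 0.51 (adjusted p = 0.434). Of 37 potassium and HCN channel genes, 14 were higher in Anterior Thalamus in both pairs and 10 in Centre Median in both (median 0.02). KCNJ2, an inward rectifier, and KCNB2, a delayed rectifier, had differences of -0.55 and -0.46 (adjusted p = 0.442 and 0.39).

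Among 23 genes of GABA synthesis, transport and reception the median was 0.14, with 12 higher in Anterior Thalamus in both pairs and 3 in Centre Median in both. GABBR2, a subunit of the metabotropic GABA-B receptor, read 11.75 and 11.81 in Anterior Thalamus and 11.14 and 11.01 in Centre Median. The difference was 1.64-fold (log2 0.71, adjusted p = 0.327 by limma), and its other probe sets gave log2 differences of 0.28, 0.37 and 0.48. GABRB1, a GABA-A subunit, went the other way at 8.22 and 8.57 against 8.83 and 9.29 (adjusted p = 0.408), and GABRA5, another GABA-A subunit, had a difference of 0.77 (adjusted p = 0.346). The GABA-synthesising enzyme GAD1 differed by 0.11 with a 95% interval of -0.34 to 0.56. Of 28 glutamate receptor genes, 9 were higher in Anterior Thalamus and 7 in Centre Median in both pairs (median 0.07). GRM3, a metabotropic glutamate receptor, read 7.83 and 8.63 against 9.06 and 9.14 (adjusted p = 0.346). GRM7, a presynaptic member of the family, had a difference of 0.54 (adjusted p = 0.603), and its other probe set gave 0.11. Of 8 glutamate transporter genes, 4 were higher in Anterior Thalamus and 3 in Centre Median in both pairs (median 0.12), and SLC1A6, a neuronal glutamate transporter, had a difference of 0.54 (adjusted p = 0.327). Of the 41 serotonin, acetylcholine, dopamine and adrenergic receptor genes, 17 were higher in Anterior Thalamus and 6 in Centre Median in both pairs, with a median of 0.07. CHRNA5, a nicotinic subunit, read 6.74 in Anterior Thalamus replicate 1 and 5.28 to 5.73 on the other 3 arrays (adjusted p = 0.58).

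Transcription factors linked to thalamic identity had 1 called member of 30, LMO1, against 0.0752% of all genes called. At an unadjusted p under 0.05 there were 10 (33.3%, against 6.65% of all genes), in a list chosen with earlier results known. ZIC1, a zinc-finger factor, read 10.87 and 10.60 in Anterior Thalamus and 9.80 and 10.11 in Centre Median (adjusted p = 0.327 by limma), with 12 members higher in Anterior Thalamus and 9 in Centre Median in both pairs and a median of 0.04. Of 48 Wnt and growth factor genes, TPBG was called, 4 had an unadjusted p under 0.05, 9 were higher in Anterior Thalamus and 15 in Centre Median in both pairs (median -0.01). The neurotrophin BDNF read 7.03 in Anterior Thalamus replicate 1 and 5.87 to 6.06 on the other 3 arrays (adjusted p = 0.603). Of 57 axon guidance genes, 0 were called (6 at an unadjusted p under 0.05) and 16 and 17 were higher in Anterior Thalamus and Centre Median in both pairs (median 0.02). EPHA3, an ephrin receptor, had a difference of 0.76 and EPHB6, a kinase-dead member of that family, of -0.59 (adjusted p = 0.591 and 0.277). Other EPHA3 probe sets gave differences of 0.13 and 0.34. Of 38 cadherins and other adhesion molecules, 0 were called (4 at an unadjusted p under 0.05), 8 were higher in Anterior Thalamus and 12 in Centre Median in both pairs, and the median was -0.08. Of 38 proteoglycans and sulfation enzymes, 0 were called (5 at an unadjusted p under 0.05) and 14 and 7 were higher in the same order (median 0.05), with CHST15, a chondroitin sulfotransferase, at 0.65 (adjusted p = 0.304).

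Respiratory chain and axonal cytoskeleton genes had medians of opposite sign in the pairs. The 60 respiratory chain and ATP synthase genes had a median of -0.20 in replicate 1 and 0.13 in replicate 2, and 48 of the 60 had opposite signs in the pairs. The 24 neurofilament and axonal cytoskeleton genes had medians of -0.21 and 0.17, and 17 had opposite signs. NEFM, the medium neurofilament subunit, read 9.08 and 9.81 in Anterior Thalamus and 10.08 and 10.06 in Centre Median (adjusted p = 0.689 by limma). Of 18 immediate early genes, 7 were higher in Anterior Thalamus and 1 in Centre Median in both pairs, with medians of 0.10 in replicate 1 and 0.05 in replicate 2. In these 3 lists 0 were called, against 0.0752% of all genes. In each list 1 gene had an unadjusted p under 0.05, against 6.65% of all genes.

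Marker genes of cell types and neighbouring regions were read in the same way, and none was called by limma. Only 0.0752% of all genes were called, so this absence does not set the marker lists apart. At an unadjusted p under 0.05 there were 2 of 21 oligodendrocyte, 1 of 21 blood vessel, 1 of 20 astrocyte, 1 of 17 microglial, 4 of 11 inhibitory neuron, 1 of 8 relay neuron, 1 of 10 general neuronal, 2 of 11 striatal and 1 of 11 habenular genes, against 6.65% of all genes. There were 0 among the oligodendrocyte precursor, blood cell and choroid plexus lists. In punches, fewer cells of a type and less RNA per cell cannot be told apart. Oligodendrocyte and myelin genes had a median of -0.14, and 12 of 21 were higher in Centre Median in both pairs against 0 of 21 in Anterior Thalamus. Their mean level was 8.31 and 8.50 in Anterior Thalamus and 8.50 and 8.66 in Centre Median. ENPP2, a lysophospholipase of oligodendrocytes, read 10.08 and 10.42 in Anterior Thalamus and 11.41 and 10.85 in Centre Median (adjusted p = 0.558 by limma), and the myelin protein MBP differed by -0.06 with a 95% interval of -0.51 to 0.39. Blood vessel genes had a median of -0.07, with 10 of 21 higher in Centre Median and 2 in Anterior Thalamus in both pairs, and mean levels of 7.22 and 7.08 against 7.28 and 7.24. ACTA2, smooth muscle actin, read 7.36 and 7.63 against 7.61 and 8.52 (adjusted p = 0.443), and its other probe set gave a difference of 0.08. Astrocyte genes had a median of -0.07, with 7 of 20 higher in Centre Median and 2 in Anterior Thalamus in both pairs, and mean levels of 8.78 and 9.38 against 8.93 and 9.54. GFAP, the astrocyte filament, read 10.17 and 10.56 against 10.35 and 11.44 (adjusted p = 0.791), so Centre Median replicate 2 was the high array. The other GFAP probe set gave differences of -0.42 in replicate 1 and 0.40 in replicate 2. Microglial genes had a median of -0.06, with 7 of 17 higher in Centre Median and 3 in Anterior Thalamus in both pairs. The part of these differences in those of the called genes was not tested.

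Neuronal lists had members in both directions. The 8 relay neuron markers had a median of 0.21, with 5 higher in Anterior Thalamus and 2 in Centre Median in both pairs. The 10 general neuronal genes had a median of -0.08, with 7 opposed in sign. The 11 inhibitory neuron genes had a median of 0.05 and ranged from -2.07 for PVALB to 1.45 for SST. Oligodendrocyte precursor genes had a median of 0.03 over 7 genes and blood cell genes of -0.12 over 5. Genes of neighbouring structures also had medians near 0, at -0.0019 for 17 choroid plexus, ependymal and meningeal genes, 0.05 for 11 striatal genes and -0.03 for 11 habenular genes. The striatal differences ran from -0.63 for PENK to 1.20 for TAC1, and the habenular ones from -0.25 for HTR2C, a serotonin receptor, to 0.58 for CHRNA5.

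**Figure D4:**
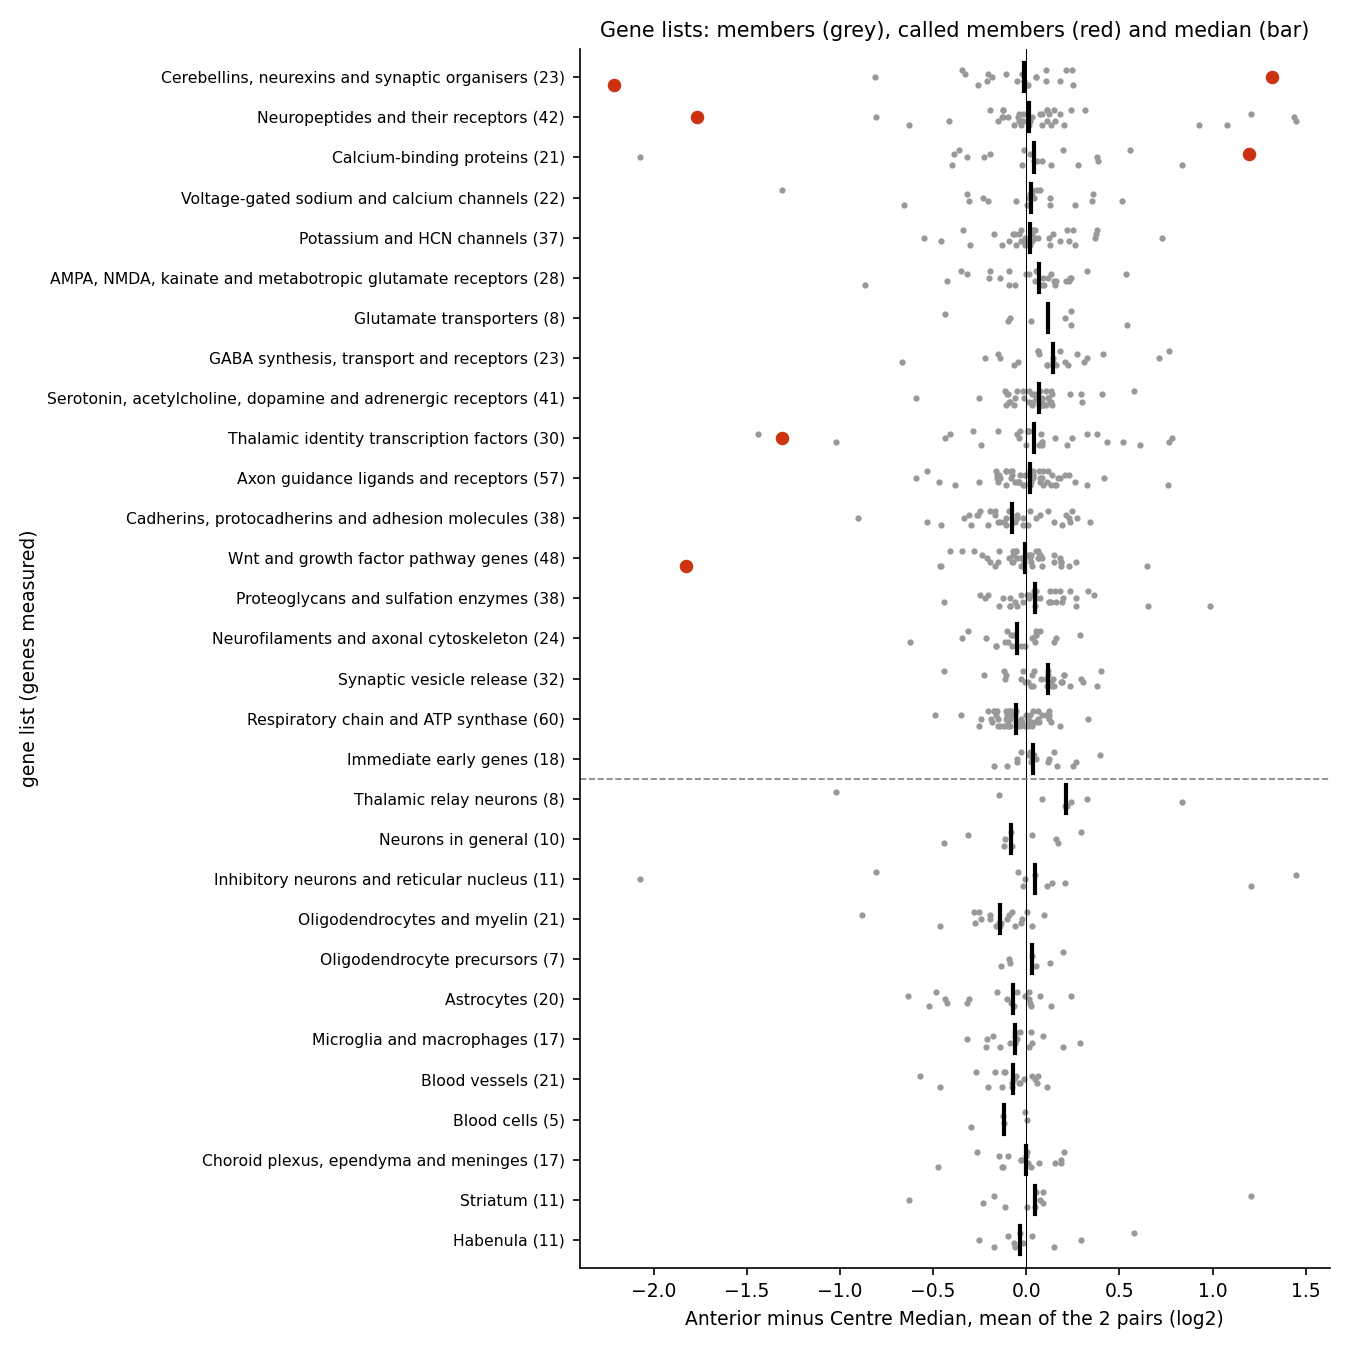
Mean difference (log2, Anterior Thalamus minus Centre Median) of the measured members of each gene list, with the number measured in parentheses; grey points are members, red points called members, bars medians, and the dashed line separates pathway lists from cell type markers. The list medians lie between -0.14 and 0.21, and the red points lie far from the median of their list.

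The number of calls depended on single arrays of both replicate numbers. It was 3 without Anterior Thalamus replicate 1 (MC4R, TPBG and DIRAS3), 4 without Centre Median replicate 1 (the same genes and CBLN1) and 20 without Centre Median replicate 2, among which were all 9. Without both replicate 1 arrays it was 2, MC4R and CBLN1, and without both replicate 2 arrays it was 4, MC4R, TPBG, DIRAS3 and CRYM. These last settings were chosen after seeing the data. With replicate 1 divided into 2 blocks by XIST and RPS4Y1, 8 of the 9 genes were called and PCP4 was not (adjusted p = 0.188 by limma). This division put Anterior Thalamus replicate 1 with Medial and Ventral Thalamus, and Centre Median replicate 1 with Pulvinar. The replicate 1 difference was then no longer taken within 1 block, and the other nuclei entered the estimate. A fit to the 4 arrays alone, which has 1 residual degree of freedom and took its spread from the trend over genes, called 185 genes (1.55%), 116 higher in Centre Median (0.97%) and 69 higher in Anterior Thalamus (0.577%), with all 9 among them. In all of these settings each of the 9 genes kept its direction.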

How the data were processed

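The authors deposited 1 intensity per probe set and array, on a linear scale, and RMA is the method that the submitters' processing notes name. Whether the 10 arrays were normalized together is not given in the sources used here. The lowest intensity lay between 11.97 and 12.30 on the replicate 1 arrays and between 9.49 and 9.55 on the replicate 2 arrays. Whether the replicate numbers were processed apart was not tested. A pseudocount of 1 was added and log2 taken. Of 22283 probe sets, 19065 had 1 gene symbol and were not controls (68 were controls, 1043 had several genes, and 2107 were not listed in the platform annotation). Each gene was represented by its brightest probe set on average over all 10 arrays, giving 11963 genes, with no filter on low values. No genome build is given, so no coordinates are stated. Detection calls were not used here, and a human probe may bind a rhesus transcript weakly. The number of arrays limits the precision.

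limma 3.58.1 (R 4.3.3) fitted 1 coefficient per nucleus and the replicate number as a block to all 10 arrays, with a variance trend (4 residual and 8.66 prior degrees of freedom), and Benjamini-Hochberg adjustment covered all genes. The fit was also run on simulated data with 50 genes changed at each of several sizes. It recovered 30% of the genes changed by 0.5 on the log2 scale, 80% at 1, 96% at 1.5 and 100% at 2. There were 10 false calls, and most changes of 0.5 were missed. The block is in the fit because the difference is defined within a replicate number. That number came from the labels. Replicate 2 minus replicate 1 correlated across genes at 0.777 between the nuclei compared and at 0.758 to 0.831 over all 10 pairs of nuclei. This describes a shift common to the nuclei, and it cannot show that arrays with the same number come from the same animal.

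Named genes were all called genes and up to 10 in each direction by p with the same sign in both pairs. For each list its called members and the 2 largest differences in each direction were added. TCF7L2, SLC17A6, CALB1, CALB2, PVALB, GAD1, MBP, GFAP, XIST and RPS4Y1 were named whatever their values. Some further genes were chosen after their values were seen, namely CRH, HTR2C, AQP4, GAS7, SULF1, MICAL2 and RYR2. The members and lists were chosen with earlier results of these data known. Lists were described by counts and medians with no test. Figures used Python 3.11.15 and matplotlib 3.10.9.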

Additional observations from a re-analysis of the deposited data

How the results depend on the processing

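Of the 9 calls, limma kept 2 without the replicate block (2 genes called in all), 9 in the fit to the 4 arrays alone (185 called) and 2 without both replicate 1 arrays of the nuclei (2 called). Without both replicate 2 arrays it kept 4 (4 called). These last settings were chosen after seeing the data. Leaving out each of the 10 arrays in turn gave between 3 and 20 calls, with the lowest count without Anterior Thalamus replicate 1 and the highest without Centre Median replicate 2. The count lay between 7 and 12 with a pseudocount of 16, quantile normalization, median centring, a mean log2 value of at least 6, the mean of all probe sets, the actin signal as a covariate, replicate 1 divided by XIST and RPS4Y1, no variance trend, and every probe set tested on its own. The filter at 6 removed DIRAS3 and LMO1 from the test. PCP4 was lost with the mean of all probe sets, with replicate 1 divided by XIST and RPS4Y1, without either Ventral Thalamus array and without Anterior Thalamus replicate 2, and LMO1 was lost without that array too. The cause of each loss was not tested.

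Signs that turned all belonged to genes that did not pass. With replicate 1 divided by XIST and RPS4Y1, the difference was -0.24 for CALB1, -0.12 for CALB2, 0.50 for XIST, -0.31 for RPS4Y1 and 0.074 for S100A8. Without both replicate 1 arrays it was -0.062 for CALB1, 0.20 for XIST and -0.029 for RPS4Y1. Without both replicate 2 arrays it was 0.012 for MBP. With the mean of all probe sets it was -0.038 for SDHC. Leaving out 1 array gave differences from -0.21 to 0.084 for MBP, from -1.65 to 0.12 for XIST, from -0.010 to 0.53 for RPS4Y1, from -0.21 to 0.022 for SLC17A7, from -0.81 to 0.12 for KIF5B, from -0.48 to 0.020 for RAB3B and from -0.021 to 0.14 for FLT1.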

Other observations

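AQP4, VIM and GFAP, chosen after their values were seen, differed between the nuclei more in replicate 2 than in replicate 1, whereas the median over all 20 astrocyte genes was -0.18 in replicate 1 and -0.01 in replicate 2. AQP4, the astrocyte water channel, read 7.59 and 7.40 in Anterior Thalamus (replicates 1 and 2) and 7.20 and 8.64 in Centre Median. VIM, the filament protein vimentin, read 7.37 and 6.94 against 7.52 and 8.06, and GFAP read 10.17 and 10.56 against 10.35 and 11.44. On these probe sets Centre Median replicate 2 was the highest of the 4 arrays, whereas a second, dimmer GFAP probe set went the other way in replicate 2, with a difference of 0.40. None passed in limma, with adjusted p of 0.86 for AQP4, 0.759 for VIM and 0.791 for GFAP.

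Testing every probe set that is not a control on its own, a setting chosen after seeing the data, gave 11 calls, of which 9 were those of the called genes. GAS7, a growth arrest gene expressed in neurons, was called through its dimmer probe set, at 7.65 and 7.80 in Anterior Thalamus against 8.49 and 8.69 in Centre Median (difference -0.87, SE 0.127, adjusted p = 0.0295 by limma). Its brighter probe set read 9.17 and 9.30 against 10.11 and 9.59 and was not called. Another probe set, for which the annotation used here lists no gene, read 6.03 and 8.15 against 5.23 and 7.00 (difference 0.98, SE 0.130, adjusted p = 0.0135). SULF1, an enzyme that removes sulfate from heparan sulfate, had the only opposed pairs at 1.5-fold: 7.60 against 8.26 in replicate 1 and 8.06 against 7.39 in replicate 2.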
